A study of Mus musculus with 4 samples.

Results

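Of 34906 merged regions of H3K27 acetylation, 3291 lay inside protein-coding genes and were covered by the list labelled BN1 only. To find them, the peaks of the list labelled control and of the list labelled BN1 were merged wherever they overlapped or touched, on placed chromosomes. A merged region was kept if all of its peaks came from the list labelled BN1, if it overlapped the body of a RefSeq protein-coding gene (build mm10, GRCm38.p6), and if it missed the window of 1000 bp around every gene end. The regions were thus chosen by where peaks were called in the 2 lists, and their position, width, fold enrichment and the absence of a control peak are given as descriptions. They are called intragenic BN1-only regions here, and a gene that holds one is called a host gene. Regions covered by the list labelled control only, and regions covered by both lists, are called control-only and shared. These names say only in which list a peak was called, since read depth is unknown and a peak can miss the threshold of one list by little.

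H3K27 acetylation (H3K27ac) was profiled by fanChIP, a form of chromatin immunoprecipitation, in C57BL/6 mouse bone marrow cells that carried the surface antigen CD45.2. The control genotype was given as cKit(+), and the BN1 genotype as cKit(+) BRD9-NUTM1, cKit being the receptor tyrosine kinase that marks many blood progenitors. Each group had 1 ChIP library with 1 peak list, so no difference has a replicate check, and the 2 input libraries and other leukaemias that the series names were not analysed here. The labels do not say how many animals gave each library, and their extract protocol speaks of cKit-positive BN1 cells for every sample, control included. In addition, peaks of the list labelled control carry the name BRNU and peaks of the list labelled BN1 carry the name BM, so that names and labels read in opposite ways, and every direction holds for the labels only. The lists held 28343 (control) and 19148 (BN1) peaks. Kit, which encodes cKit, held no peak in either list within its body or within 1000 bp of its ends. Ptprc, which encodes CD45, held 9 peaks covering 6634 bp in the list labelled control and 5 peaks covering 2958 bp in the list labelled BN1, none of them in an intragenic BN1-only region. Brd9 held 1 peak in each list and Nutm1 held none.

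H3K27ac is placed by the acetyltransferases p300 and CBP and marks active promoters and active enhancers. A mark inside a gene can belong to an enhancer of that gene or of another gene, or to a promoter from which a shorter transcript starts. BRD9 is a bromodomain protein found in a form of the BAF chromatin remodeller, and NUTM1 is a testis protein whose fusions recruit p300. Blood cell identity genes often carry several enhancers within their introns. The gene table used here gives gene ends but not exons, so exonic and intronic positions were not told apart.

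The clearest sequence context came from regions that held a transcription start. RefSeq promoter windows of 300 bases (250 before to 50 after a start, build GRCm38.p6) were available for 32851 starts, and 108 of these starts lay in 96 of the 3291 regions. The following 6 windows are shown because each lies at an inner start of its host gene that was covered by the list labelled BN1 only. Pik3ip1, an inhibitor of the PI3 kinase, had the highest fold enrichment among regions with a start. Ripor2, Cmah (the hydroxylase that makes the sialic acid Neu5Gc) and Adam19 (a membrane metalloprotease) had further starts upstream that neither list covered. The outermost 5′ end of Ripor2, for which there was no promoter window, had a peak in the list labelled BN1 only. Foxp1, a forkhead transcription factor needed for early B cell development, and Dnmt3a, a de novo DNA methyltransferase, had other starts that both lists covered. Each window is written 5′ to 3′ on the strand of its gene, with bases in capitals where 1 of the 10 motifs described later was found on either strand.
Pik3ip1, chr11:3330481-3330780, plus strand: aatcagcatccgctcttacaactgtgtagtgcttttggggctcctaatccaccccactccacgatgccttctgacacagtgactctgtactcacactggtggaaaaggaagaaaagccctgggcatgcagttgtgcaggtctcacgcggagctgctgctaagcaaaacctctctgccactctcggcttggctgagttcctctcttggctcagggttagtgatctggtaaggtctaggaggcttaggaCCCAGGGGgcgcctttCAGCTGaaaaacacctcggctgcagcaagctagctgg
Ripor2, chr13:24614356-24614655, plus strand: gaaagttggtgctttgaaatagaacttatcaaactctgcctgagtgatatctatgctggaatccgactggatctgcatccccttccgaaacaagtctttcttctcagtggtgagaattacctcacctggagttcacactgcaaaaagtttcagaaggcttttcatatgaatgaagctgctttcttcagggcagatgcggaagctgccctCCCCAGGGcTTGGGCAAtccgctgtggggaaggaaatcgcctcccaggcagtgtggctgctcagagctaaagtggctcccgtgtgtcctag
Cmah, chr13:24414872-24415171, plus strand: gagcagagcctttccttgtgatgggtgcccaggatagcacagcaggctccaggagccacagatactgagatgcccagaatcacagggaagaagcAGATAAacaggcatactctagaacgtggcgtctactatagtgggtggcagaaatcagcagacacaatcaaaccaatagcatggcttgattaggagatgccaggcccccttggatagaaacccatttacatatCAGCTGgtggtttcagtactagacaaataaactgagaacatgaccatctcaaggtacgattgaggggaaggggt
Adam19, chr11:46127654-46127953, plus strand: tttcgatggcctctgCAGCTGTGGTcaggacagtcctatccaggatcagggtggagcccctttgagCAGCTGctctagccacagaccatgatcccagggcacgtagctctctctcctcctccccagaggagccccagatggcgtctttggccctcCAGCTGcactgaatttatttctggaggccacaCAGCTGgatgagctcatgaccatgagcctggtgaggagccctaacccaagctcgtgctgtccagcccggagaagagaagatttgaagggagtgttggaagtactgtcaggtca
Foxp1, chr6:99266466-99266765, minus strand: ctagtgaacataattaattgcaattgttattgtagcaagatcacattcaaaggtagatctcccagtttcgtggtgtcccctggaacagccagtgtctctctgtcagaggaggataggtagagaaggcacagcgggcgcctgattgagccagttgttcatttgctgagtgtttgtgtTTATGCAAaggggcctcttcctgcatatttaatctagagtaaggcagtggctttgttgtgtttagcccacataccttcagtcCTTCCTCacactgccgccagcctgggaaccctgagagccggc
Dnmt3a, chr12:3891494-3891793, plus strand: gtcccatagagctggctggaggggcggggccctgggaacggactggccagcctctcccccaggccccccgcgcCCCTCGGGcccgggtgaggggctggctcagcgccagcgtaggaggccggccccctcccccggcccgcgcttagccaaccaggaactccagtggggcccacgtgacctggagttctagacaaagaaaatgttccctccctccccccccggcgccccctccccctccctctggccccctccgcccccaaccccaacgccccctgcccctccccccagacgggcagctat
The Pik3ip1, Cmah and Adam19 windows hold the E-box CAGCTG, in Adam19 at several places, one of them overlapping a RUNX motif. The Foxp1 window holds a PU.1 motif on the opposite strand and a C/EBP motif. The Dnmt3a window is rich in G and C (74.0%) and holds 18 CG dinucleotides, against 5 in the Foxp1 window.

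Intragenic BN1-only regions were common among regions specific to the list labelled BN1, but control-only regions inside genes outnumbered them. Of 7159 BN1-only regions, 46.0% lay inside genes (exact 95% interval 44.8 to 47.1%), 39.5% between genes and 14.5% at gene ends. The corresponding intragenic share was 54.8% (54.0 to 55.5%) of 16638 control-only regions and 19.8% (19.0 to 20.5%) of 11109 shared regions, 66.9% of which lay at gene ends. BN1-only regions made up 20.5% of all merged regions and 22.5% of the 14602 regions inside genes, against 62.4% for control-only regions inside genes. Per Mb of gene body there were 3.19 intragenic BN1-only, 8.83 control-only and 2.13 shared regions. The intervals, here and throughout, are Clopper-Pearson intervals that cover counting error only. The list labelled control is the longer one. With it alone cut to its 19148 most confidently called peaks, the length of the list labelled BN1, the ratio of BN1-only to control-only density rose from 0.361 to 0.818. Such a cut removes control-only regions and turns some shared regions into BN1-only ones, so a rise is built into it. How far depth contributed to the ratio was not tested.

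**Figure D1:**
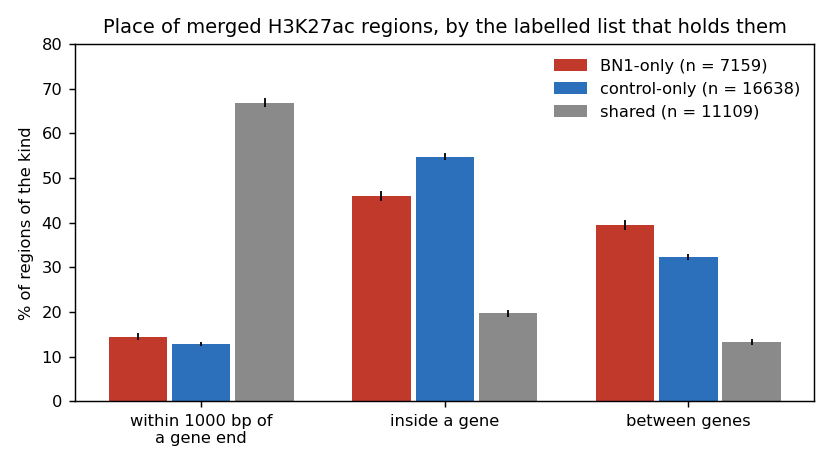
Share (y axis, %) of BN1-only, control-only and shared H3K27ac regions that lie within 1000 bp of a gene end, inside a gene or between genes, with exact 95% intervals as error bars. The bar for BN1-only regions inside genes stands at 46.0%, below control-only regions at 54.8% and above shared regions at 19.8%.

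Most of these regions were narrow and modest in enrichment. Their median width was 441 bp (quartiles 297 and 750), and their median fold enrichment, the authors' value at the summit within the list labelled BN1, was 4.73 (quartiles 3.78 and 6.21). Control-only regions inside genes were much alike in width, at 482 bp, with a median of 5.03-fold within their own list. Shared regions inside genes were wider, at 1472 bp. Fold enrichment spanned 1.72 to 33.6 and width spanned 215 to 5434 bp, with 1867 regions under 500 bp and 120 of at least 2000 bp. The lowest −log10 q, the authors' measure of peak confidence, was 1.30 and the highest was 148. It was below 5 in 1310 regions and at least 50 in 46. None of the 1000 most enriched peaks of the list labelled BN1 was among them, and the best, in Ak9, ranked 1002.

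The share of intragenic BN1 peaks without a control counterpart was lower at higher peak confidence, which is a description because the same calls chose the regions. Of regions inside genes whose BN1 peak had a −log10 q below 5, 77.2% were BN1-only (1310 of 1696). The share was 55.2% between 10 and 20, and 9.96% (46 of 462; 7.38 to 13.1%) at 50 or more. The most confidently called regions were thus a small part of the set.

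The highest fold enrichments came from genes of diverse function. A region of 1658 bp in Ak9, an adenylate kinase gene, reached 33.6-fold (chr10:41384939-41386596), 63.2 kb from the nearest control peak and 82.4 kb from the 5′ end of the gene. Pik3ip1 followed at 27.9-fold (chr11:3330395-3332446), with the highest −log10 q of the set, 148. Then came 2 genes for sulfotransferases of chondroitin, Chst15 at 26.8-fold (chr7:132315721-132317876) and Chst3 at 26.6-fold (chr10:60216641-60220396). The Chst15 region lay 258 kb from any control peak, whereas the Chst3 region lay 6.09 kb from one and Chst3 also hosted 3 control-only regions. Dedd2, which encodes a death effector domain protein, reached 26-fold, and Slc12a3, the thiazide-sensitive sodium chloride cotransporter known from kidney, reached 25.3-fold over 4976 bp. Ccdc146 (24.4-fold), Chrna9 (23.8-fold), the ubiquitin ligase gene Trim11 (21.3-fold) and Ripor2 (21.2-fold) completed the 10 highest. The widest region, 5434 bp in the centrosomal gene Cep85, had a fold enrichment of 6.96, so width and enrichment did not rank the same regions first. Wwox (4777 bp), Hdc (4680 bp) and Ago2 (4583 bp) held the other widest ones beside Slc12a3.

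The 3291 regions fell in 1725 of 21887 protein-coding genes, 7.88% of all genes, and 38 of them lay in 2 or more genes at the same time. By comparison, 3466 genes (15.8%) held a control-only region. Of the host genes, 1024 (59.4%) held exactly 1 region, 701 (40.6%) at least 2, and 110 at least 5, which is 0.503% of all genes. Host genes were long, with a median length of 59.6 kb against 17.2 kb for all protein-coding genes and 52.6 kb for hosts of control-only regions. Among genes under 10 kb, 0.946% were hosts, rising to 13.0% at 30 to 100 kb and 23.8% at 100 to 300 kb, and the control-only share rose with length too (2.75%, 26.6% and 41.6%). The plot of acetylated length against gene length shows that the genes with the most BN1-only acetylation were not simply the longest.

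**Figure D2:**
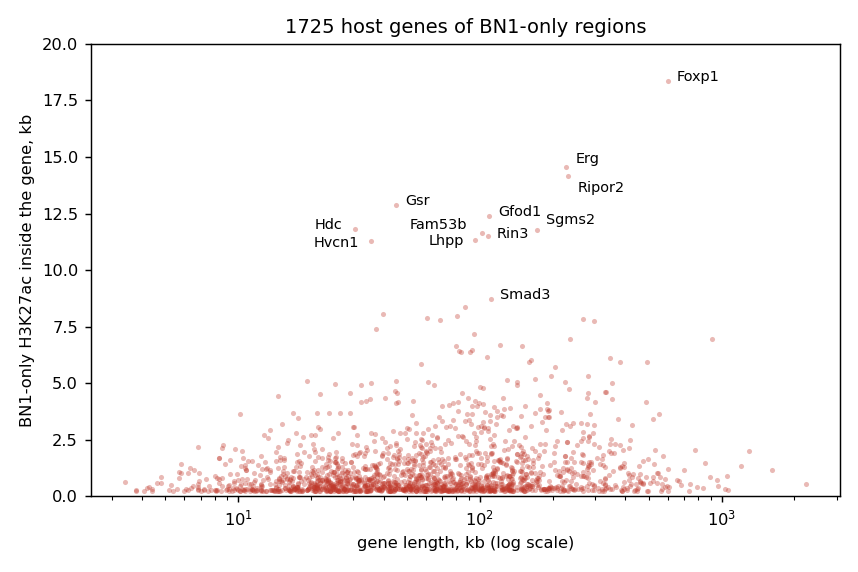
Each point is 1 of the 1725 host genes, placed by gene length (x axis, kb, log scale) and by the summed width of its intragenic BN1-only regions (y axis, kb). The 12 named genes hold the most, from Smad3 at 8720 bp to Foxp1 at 18356 bp, over gene lengths from 30.4 kb (Hdc) to 597.4 kb (Foxp1).

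Foxp1 hosted the most BN1-only bp of any gene, 18356 bp in 16 regions spread over 597.4 kb. Fold enrichment of these ran from 2.82 to 13.04, and the strongest lay at chr6:99300590-99303171. Control-only acetylation lay in the same gene body, in 11 regions covering 10026 bp, together with 10 shared regions, and its 5′ end was acetylated in both lists. The nearest control peak was 1.97 kb from one BN1-only region (chr6:99337695-99340280) and 52.7 kb from the region at the inner start (chr6:99265209-99266794). Foxp1 was thus acetylated within its body in both lists, at partly different places.

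Erg, an ETS transcription factor required by blood stem cells, differed from Foxp1 in having no control peak at all. It held 15 BN1-only regions covering 14562 bp of its 227.4 kb, with fold enrichments from 3.76 to 14.78. Of these, 8 lay in 1 run of 14548 bp, including the strongest at chr16:95455648-95459156, 128 kb from the 5′ end. Neither list had a peak within 1000 bp of an end of Erg, and the nearest control peak was at least 198 kb from each of the regions.

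A further group of hosts combined dense BN1-only acetylation with no control peak in the gene or within 1000 bp of its ends. Hdc, which encodes the enzyme that makes histamine, held 6 regions covering 11798 bp of 30.4 kb. Its 2 most enriched regions lay close together, at chr2:126604948-126608293 (14.8-fold) and chr2:126600041-126604720 (12.5-fold), 65.9 and 69.5 kb from the nearest control peak. Hvcn1, the voltage-gated proton channel of phagocytes and B cells, held 9 regions covering 11269 bp of 35.5 kb, 25.36 regions per 100 kb. Ripor2 held 11 regions and 14162 bp, Gfod1 11 regions and 12410 bp, and each had an end acetylated in the list labelled BN1 only. In Ripor2 the regions clustered between 96.4 and 140 kb from the 5′ end, and the strongest, 21.2-fold at chr13:24614121-24617727, held the inner start shown above.

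In all, 400 of the 1725 hosts (23.2%, 21.2 to 25.3%) had no control peak inside or within 1000 bp of an end, against 48.7% of all genes. Besides the genes just named, those with the most BN1-only bp among the 400 were Heg1 (11 regions, 8386 bp), Crispld2 (4 regions, 7889 bp), Ldlrad3 (8 regions, 6935 bp), Gramd4 (6 regions, 6657 bp), Cmah (10 regions, 6628 bp), Adam19 (7 regions, 6473 bp) and Cplx2 (3 regions, 6398 bp). Heg1 is a transmembrane protein known from endothelium, and Cmah had one region as high as 19.15-fold. These genes other than Erg, Ripor2, Gfod1, Hdc and Hvcn1 were picked out after their values were seen.

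The other hosts with the most BN1-only bp were also acetylated in the list labelled control. Gsr, which encodes glutathione reductase, held 11 BN1-only regions in a single run of 20835 bp, the run with the most regions. It held no control-only or shared region inside, but a shared region lay at one end of the gene. Their fold enrichments ran from 4.33 to 12.92, and the one nearest a control peak lay 1.58 kb from it. Sgms2, a sphingomyelin synthase gene, held 11 BN1-only, 1 control-only and 2 shared regions, and its strongest BN1-only region (21.1-fold, chr3:131366787-131368778) lay 1.63 kb from a control peak. Fam53b held 11 BN1-only and 4 control-only regions. Rin3, an exchange factor for the GTPase Rab5, held 14 and 2. The phosphatase gene Lhpp held 14 BN1-only regions, 2 shared ones and no control-only region, with an end acetylated in the list labelled control only. Smad3, a transducer of TGF-β signals, held 8 BN1-only regions of up to 19.51-fold beside 1 control-only and 1 shared region.

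**Figure D3:**
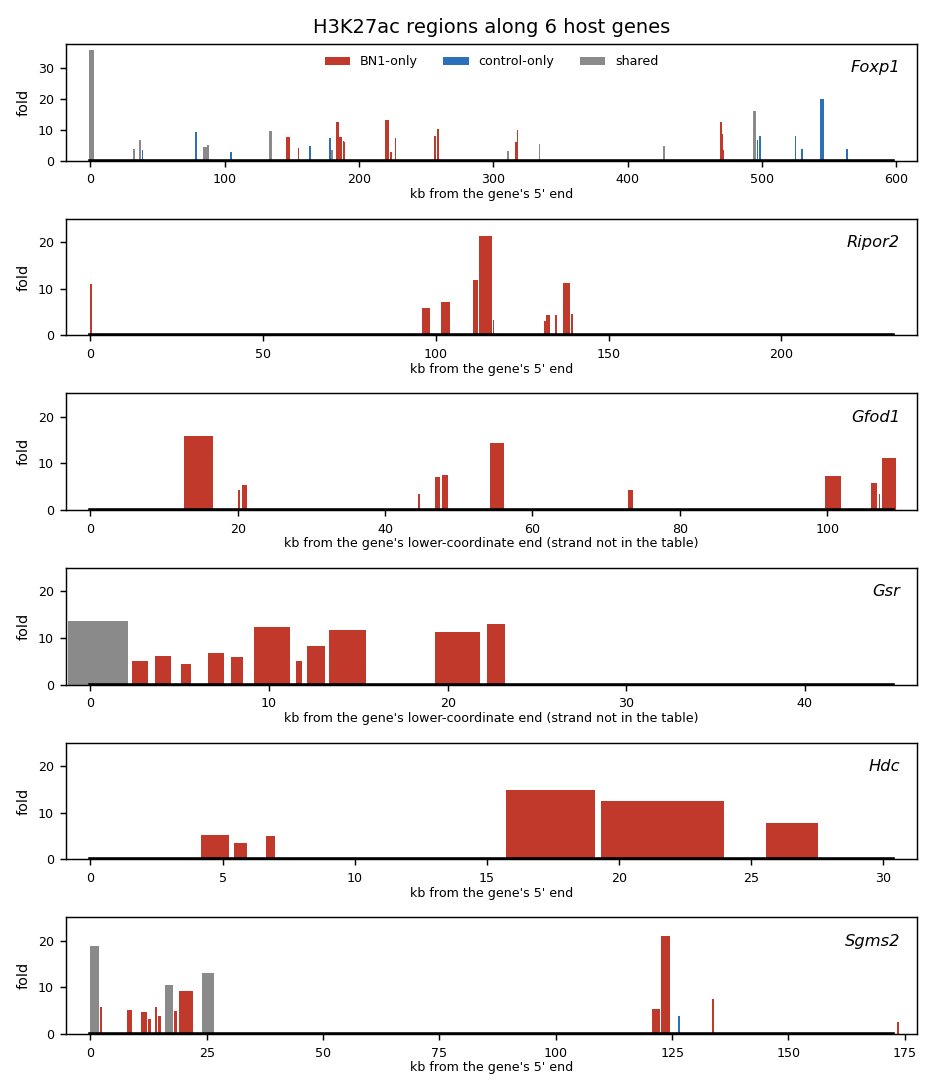
H3K27ac regions along 6 host genes, with position in kb on the x axis and the authors' fold enrichment on the y axis (the BN1 list's value for BN1-only and shared regions, the control list's for control-only ones), regions at gene ends included. Ripor2, Gfod1 and Hdc show BN1-only regions alone, while Foxp1 carries all 3 kinds along its 597.4 kb.

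Intragenic BN1-only regions lay nearer to other BN1 peaks than to control peaks, a contrast that the rule favours because it admits no overlap with a control peak. The nearest other BN1 peak was a median of 1.24 kb away, and within 1000 bp for 47.7% of regions, against 56.6% for control-only regions and other control peaks. The nearest control peak was a median of 13.0 kb away (quartiles 3.22 and 43.4). It lay within 1000 bp for 417 regions (12.7%), within 5000 bp for 1063 (32.3%) and beyond 50 kb for 724 (22.0%). When regions less than 5000 bp apart were joined, 49.9% of them fell into 646 runs of 2 or more, and 78 runs held 4 or more. Besides Gsr, long runs without a control peak in their span lay in Smad3 (6 regions over 23479 bp), Sema4b (6 regions over 16345 bp) and Eps15l1 (7 regions over 15591 bp). The runs in Fam53b (9 regions over 24290 bp) and Lhpp (10 regions over 18497 bp) each had 2 control peaks between their regions. Whether neighbouring peaks of a run are 1 acetylated domain divided in peak calling was not tested.

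Along the host gene the regions leaned slightly towards the 5′ part. Strand was known for 2573 of them, from the promoter table. Of these, 55.8% (53.9 to 57.7%) had their midpoint in the first 50% of the gene, against 57.7% of 7266 control-only and 67.4% of 1804 shared regions. Within 10 kb of the 5′ end lay 23.3%, 25.1% and 35.3%. The first 10% of the gene held 8.59% of BN1-only regions, a place narrowed by the exclusion of 1000 bp at each end, and the last 10% held 6.37%. The BN1-only and control-only profiles lay close to each other over the gene, and the shared profile was steeper.

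**Figure D4:**
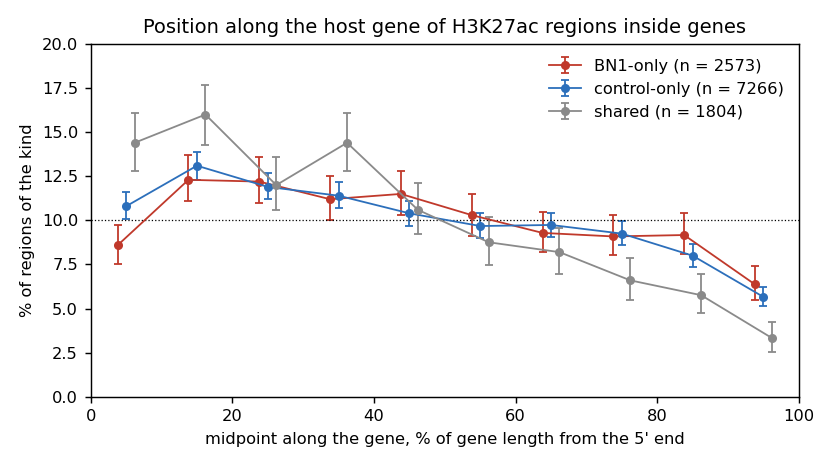
Position of the region midpoint along the host gene (x axis, % of gene length from the 5′ end, in steps of 10%) against the share of regions of each kind (y axis, %), with exact 95% intervals and a dotted line at 10%. BN1-only regions go from 12.3% in the second step to 6.37% in the last, near the control-only curve, while shared regions start at 14.4% and end at 3.33%.

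Host genes were more often acetylated at their ends in the list labelled BN1 alone than genes at large. Both lists had a peak within 1000 bp of an end of 945 hosts (54.8%), the list labelled BN1 alone in 179 (10.4%, 8.98 to 11.9%), the list labelled control alone in 111 (6.43%) and neither in 490 (28.4%). Over all genes the 4 shares were 38.4%, 3.23%, 6.62% and 51.8%, and over hosts of control-only regions they were 59.8%, 1.79%, 13.2% and 25.3%. Gene ends and gene bodies were called from the same 2 libraries, so these shares are not independent of each other. Among hosts, 693 (40.2%) also held a control-only region, which is 20% of the 3466 control-only hosts, and 533 (30.9%) a shared one.

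The regions that held a start of their own host gene were wider and more enriched than the rest. There were 74 of them (2.25%, 1.77 to 2.81%), against 132 of the control-only (1.45%, 1.21 to 1.72%) and 566 of the shared regions (25.8%). Their median width was 983 bp and their median fold enrichment 7.08 (quartiles 4.94 and 11.4), against 437 bp and 4.70 for the other 3217 regions. They included 14 of the 46 regions with a −log10 q of 50 or more. A wider region has more room to hold a start, so the choice of the 74 favours a contrast in width. The same contrast was not drawn within control-only or shared regions. The 74 regions belonged to 71 genes, and at the outermost 5′ end 25 of these were acetylated in both lists, 8 in the list labelled BN1 alone, 4 in the list labelled control alone and 34 in neither. Gene ends here are the outermost RefSeq ends, predicted transcripts included, so an inner start can be the usual start of its gene.

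The single start of Pik3ip1 in the promoter table lay 11.5 kb inside the gene by this definition, and the start of Chst3 lay 2.85 kb inside. Cmah was covered at its inner start (19.1-fold, 87.7 kb from the 5′ end) and not at its upstream start. Adam19 was covered at its most downstream start, 73.4 kb inside (8.69-fold), and at neither of the 2 upstream ones. Runx3, a RUNX transcription factor, was covered at its downstream start (8.42-fold) and not at its upstream start. Satb1, a chromatin organiser of lymphoid cells, was covered by the list labelled BN1 alone at an inner pair of starts (17.8-fold) and at its 5′-most pair, and by neither list at a start between them. In Foxp1 the inner start was covered at 8.05-fold, and in Dnmt3a at 8.54-fold, with a control peak 0.6 kb away. Dnmt3a also held 8 control-only regions covering 14782 bp, so its BN1-only region of 1268 bp was the smaller part of its list-specific acetylation. Runx3, Satb1, Cmah and Adam19 were chosen after their values were seen.

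A set of 10 short motifs of blood transcription factors was counted on both strands of the 108 promoter windows whose start lay in an intragenic BN1-only region, some of which overlap each other. The letters searched were CCGGAA for ETS factors, GAGGAAG for PU.1, TGTGGT for RUNX factors and, for the GATA factors, AGATAA. They were CCCNNGGG for EBF, TTGCNNAA for C/EBP, TGANTCA for AP-1 and, for the E-box, CAGCTG. For IRF factors a GAAA was followed by another after 2 bases, and for MEF2 a CTA was followed by TAG after 4 bases. The E-box was found in 26.9% of windows (18.8 to 36.2%), against 22.3% of 211 windows at starts in control-only regions, 12.8% of 818 at starts in shared regions and 16.3% of all 32851. The ETS motif was found in 6.48% (2.65 to 12.9%), against 10.9%, 27.1% and 14.9%. The share was 17.6% for RUNX (16.8% of all windows), 13.9% for PU.1 (13.6%), 15.7% for EBF (13.7%), 14.8% for C/EBP (10.8%) and 5.56% for GATA (11.2%). It was 4.63% for AP-1 (7.81%), 4.63% for IRF (3.44%) and 1.85% for MEF2 (3.69%). At starts in control-only regions the shares were 17.1% for RUNX, 15.2% for PU.1, 16.6% for EBF, 12.8% for C/EBP and 5.69% for GATA. There they were 11.4% for AP-1, 1.42% for IRF and 5.69% for MEF2. The low GATA share was thus found at control-only starts too. The windows held a median of 7 CG dinucleotides, as did all windows, against 22 at starts in shared regions. A match is a run of letters and not evidence of binding, and the 3291 regions as a whole were not searched, because no genome was used here.

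Genes of known blood cell roles were then read from lists, set against the background of 7.88% of all protein-coding genes hosting a BN1-only region. Long genes host more regions, so the median gene length of each list is given beside its count, against 17.2 kb over all protein-coding genes. A gene short enough to lie wholly within the windows of 1000 bp around its ends cannot be a host. A peak in bulk cells cannot tell a larger share of acetylated cells from more acetylation per cell, and cells of another lineage in the sort cannot be told apart from a change within cells. The plot of the lists shows both kinds of host side by side.

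Transcription factors of the B lineage hosted BN1-only regions in 14 of 23 genes (60.9%, 38.5 to 80.3%) and control-only regions in 7 of 23, with 58 BN1-only and 26 control-only regions and a median gene length of 88.0 kb. Foxp1 led with 16 regions, followed by Ets1, an ETS factor of lymphocytes, with 11 regions covering 6689 bp and fold enrichments of 2.96 to 8.30. Ets1 also held 2 control-only regions covering 1712 bp and 1 shared region covering 2739 bp. Bcl11a, a zinc finger factor needed for B cell development, held 5 regions covering 3972 bp, and Pax5, the factor of B cell commitment, 5 covering 3511 bp. Neither Bcl11a nor Pax5 held a control-only or shared region inside, and both were acetylated at an end in the list labelled BN1 alone. In Pax5 the regions included chr4:44705579-44706065 (8.06-fold), 4.77 kb from the 5′ end, and chr4:44671327-44673283 (6.11-fold), 39.2 kb from it. One Pax5 region, at a −log10 q of 1.43, was among the 3 weakest called of all 3291.

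Ebf1, which specifies the B lineage, and Ikzf3, which encodes Aiolos, showed the same arrangement as Pax5 and were picked out after their values were seen. Ebf1 held 4 regions covering 2053 bp, the strongest at 10.3-fold 332 kb from the 5′ end (chr11:44950129-44950465), and Ikzf3 held 2 covering 2671 bp. Bach2, a repressor of plasma cell differentiation, held 4 BN1-only regions covering 1888 bp beside 5 control-only regions covering 6552 bp. Foxo1, Spib, Pou2f2, Pou2af1, Aff3, Sox4, Bcl6, Prdm1 and Bcl7a held none. Genes of the B cell receptor and B cell surface were hosts in 10 of 26 cases (38.5%, 20.2 to 59.4%), with 25 BN1-only and 28 control-only regions and a median length of 17.2 kb. The kinase gene Prkcb had 11 regions covering 6117 bp but also 8 control-only regions covering 9081 bp. Cd79b, Vpreb1, Igll1, Rag1 and Ms4a1 had no intragenic BN1-only region. Of these, Cd79b, Vpreb1 and Igll1 were acetylated at an end in the list labelled BN1 alone, and Vpreb1, at 855 bp, is too short to be a host.

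**Figure D5:**
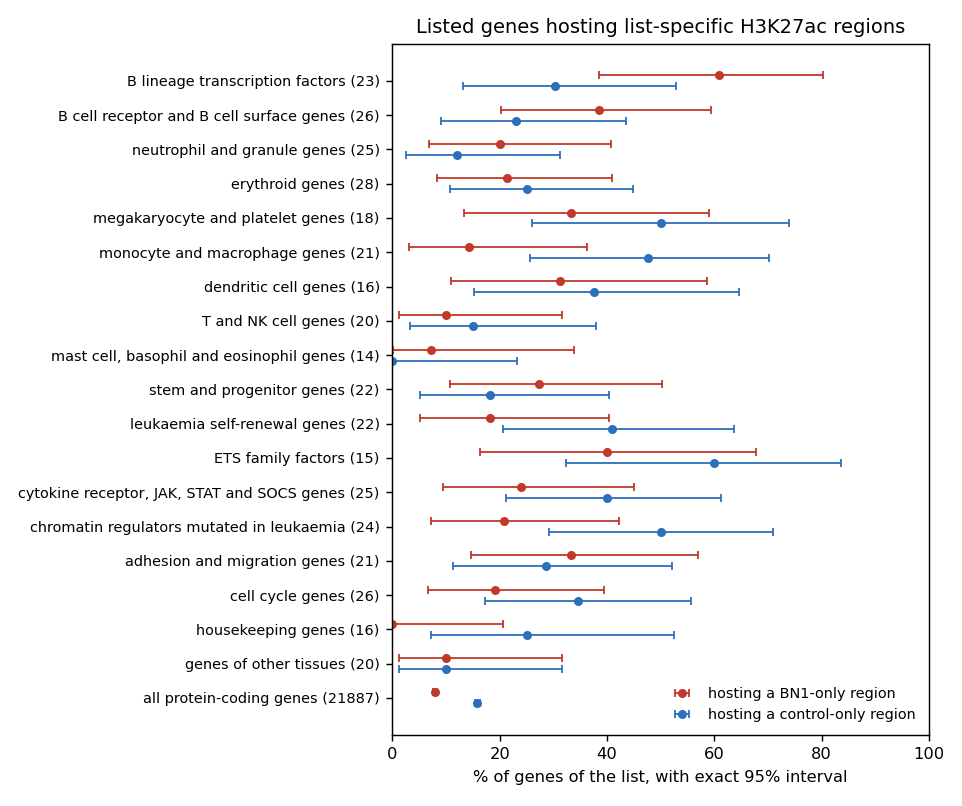
Share of genes of each list (x axis, %, number of genes in brackets) that hold a BN1-only region (red) or a control-only region (blue) inside, with exact 95% intervals. B lineage transcription factors stand at 60.9% for BN1-only and 30.4% for control-only regions, monocyte and macrophage genes at 14.3% and 47.6%, and all protein-coding genes at 7.88% and 15.8%.

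Neutrophil and granule genes were hosts in 5 of 25 cases (20%), with 9 BN1-only and 3 control-only regions, at a median length of 4.04 kb. Ltf, which encodes lactoferrin, held 3 regions covering 1713 bp (4.03 to 5.66-fold), and the gelatinase gene Mmp9 held 3 covering 1593 bp. The others were Gfi1, Csf3r, the receptor for G-CSF, and Cd177, with 1 each. Monocyte and macrophage genes were hosts in 3 of 21 cases (14.3%) and held 4 BN1-only against 47 control-only regions, at a median length of 19.6 kb. Those 3 were Spi1, which encodes PU.1 (2 regions, 1903 bp), Ly86 and Mrc1, and Cd36 and Mitf held 21 and 12 control-only regions and no BN1-only region. T and NK cell genes (median length 19.2 kb) were hosts in 2 of 20 cases (10%), genes of other tissues (15.2 kb) in 2 of 20 (10%) and housekeeping genes (5.13 kb) in 0 of 16. Dendritic cell genes were hosts in 5 of 16 cases (31.2%, 11.0 to 58.7%; median length 13.6 kb), with Flt3 and H2-Ab1 among them. This list held 7 BN1-only against 23 control-only regions, the latter in 6 of the 16 genes. Hdc was the only host among 14 genes of mast cells, basophils and eosinophils, whose median length was 9.91 kb.

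Erythroid genes were hosts in 6 of 28 cases (21.4%), with 10 BN1-only and 25 control-only regions and a median length of 18.2 kb. Nfe2, a factor of erythroid cells and platelets, held a region of 3232 bp at 15.8-fold (chr15:103252887-103256118) and a smaller one at 4.43-fold, with no control-only region. Bcl2l1, which encodes the survival protein BCL-XL, held 2 BN1-only regions covering 3083 bp against 14 control-only regions covering 13875 bp. Megakaryocyte and platelet genes were hosts in 6 of 18 cases (33.3%, 13.3 to 59.0%; median length 23 kb), and control-only regions lay in 9 of the 18. They held 8 BN1-only against 29 control-only regions, and all 6 hosts also held a control-only region. The intervals of this list and of the dendritic cell list overlap that of the B cell receptor and surface list. How far cells of these lineages contributed to either library was not tested.

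Stem and progenitor genes were hosts in 6 of 22 cases (27.3%) at a median length of 44.2 kb, and 15 of their 33 regions lay in Erg. Etv6, an ETS repressor, held 9 regions covering 4737 bp and 11 control-only regions covering 7807 bp. Runx1, a master regulator of blood formation, held 4 BN1-only regions covering 5038 bp, 3 control-only regions covering 7285 bp and 2 shared ones. Flt3, the progenitor receptor kinase, held 3 BN1-only regions covering 3987 bp, the strongest at 12-fold (chr5:147339277-147341726), and 2 control-only regions. Kit, Cd34, Gata2, Meis1 and Mecom held none. Genes of leukaemia self-renewal were hosts in 4 of 22 cases (18.2%) and held 12 BN1-only against 45 control-only regions at a median length of 135 kb, with Cdk6 (6 regions, 3840 bp), Mef2c, Myb and Eya1 as the 4 hosts. Cdk6 also held 6 control-only regions covering 4865 bp and 5 shared ones covering 8946 bp. Mef2c held 2 control-only and 3 shared regions, and Myb and Eya1 held neither kind. Hoxa9 and Meis1 were not hosts.

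Signalling and chromatin genes gave a mixed picture. Of the genes for JAK, STAT, SOCS and cytokine receptor proteins, 6 of 25 were hosts, at a median length of 25.2 kb. More of them, 10 of 25, held control-only regions, and the list held 9 BN1-only against 21 control-only regions. Jak1 held a region at 16.1-fold (chr4:101182428-101183416) and also 2 control-only regions, and Stat4 held 3 regions covering 1589 bp with no control-only region. Chromatin regulators mutated in leukaemia were hosts in 5 of 24 cases (20.8%), with 18 BN1-only and 38 control-only regions and a median length of 87.1 kb. Smarca4, the BRG1 ATPase of BAF complexes, held 2 neighbouring regions at 16-fold and 17.7-fold (chr9:21624103-21625326 and chr9:21625555-21627945). Their summits lay 9.06 and 9.76 kb from the 5′ end, and the gene held no control-only region. Arid1b, another BAF subunit, held 9 BN1-only and 6 control-only regions. Ccnd3, which encodes the G1 cyclin D3, held 11 BN1-only regions covering 7159 bp and no control-only region, the strongest at 11.2-fold (chr17:47521214-47523790). The gene also held 2 shared regions covering 5198 bp, and both lists had a peak within 1000 bp of an end. Cell cycle genes as a list were hosts in 5 of 26 cases (19.2%; median length 13.1 kb), and adhesion and migration genes in 7 of 21 (33.3%; 20.9 kb). Control-only regions lay in 9 of the 26 and in 6 of the 21. ETS family factors were hosts in 6 of 15 cases (40.0%), and 9 of 15 (60%) held control-only regions, at a median length of 52.1 kb. They held 42 BN1-only and 37 control-only regions, and of the 42, 15 lay in Erg and 11 in Ets1.

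Over the genome the share of intragenic regions that were BN1-only varied moderately between chromosomes. It was lowest on chromosome X (14.9%, 9.87 to 21.2%, 25 regions) and chromosome 6 (16%) and highest on chromosome 17 (28.2%, 24.6 to 31.9%), around 22.5% overall. Chromosome 11 held the most regions, 264. Ends of long noncoding RNA genes lay within 1000 bp of 120 regions (3.65%, 3.03 to 4.34%), against 3.04% of control-only and 8.19% of shared regions. The microRNA hairpins Mir1904, in Pde4d, and Mir6992, in Stx5a, lay within such regions.

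Regions at the edges of the rule show how it divides the data. The regions nearest a gene end that were still counted as inside lay in Snrnp70, Nr1d1 and Tecr, 1008, 1010 and 1011 bp from the end, and those just outside lay at Pold1, Mid1 and Rogdi, between 980 and 986 bp away. The smallest gaps to a control peak were 7 bp in Maml1, 8 bp in Cdyl2 and 11 bp in Sh3bp5. Regions left out because they shared the fewest bp with a control peak lay in Inpp5d, Lasp1 and Sh3bp5, with 9, 11 and 13 shared bp. The lowest −log10 q values were 1.30 in Il16, 1.35 in Kcnip3 and 1.43 in Pax5.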

How the data were processed

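H3K27ac ChIP was represented by 1 deposited narrowPeak list for each of 2 ChIP libraries, with groups taken from the sample titles. The submitters' processing notes name the tools MACS3 3.0.1, Bowtie2 2.5.4, deepTools 3.5.1 and Picard 3.2.0, without role or order, and mm10 (GRCm38) as the build. For the peak threshold, pooling and the use of input, the sources used here give nothing. The deposited columns are the authors' fold enrichment (a linear ratio), −log10 p, −log10 q and a score. The score was not used. Fold enrichment was ranked only within its list, and where values of the 2 lists stand side by side they may not share a scale. The lists hold no read counts, so depth and the precision it gives are unknown.

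Peaks were merged at a distance of 0 bp with a routine tested on simulated regions and checked against bedtools 2.31.1. Genes, gene ends (window 1000 bp), strand and promoter sequences came from RefSeq tables of GRCm38.p6. The promoter table gave a strand for 17492 of 21887 genes and 1370 of 1725 hosts. With 1 library per group no test was run and no p-value was computed. The rule, the 19 lists (387 genes) and the motifs were chosen with earlier results of these data known. Named genes were the 12 hosts with the most BN1-only bp, hosts of the 10 most enriched and 5 widest regions, up to 4 hosts of each list by bp, and the 3 regions on each side of a threshold. Predicted genes were left out, and some listed results are not reported here. Other genes were named after their values were seen, among them single listed genes with a few regions or none. The planned motif search at summits was replaced by one in promoter windows, because no genome was used here. Alternatives were lists of equal length, minimums of 5 and 10 on −log10 q, merging within 1000 and 5000 bp, gene end windows of 500 and 2500 bp, chromosome sets and a midpoint rule. For equal length only the list labelled control was cut, to its 19148 peaks with the highest −log10 q. Python 3.11.15, pandas 2.3.3 and scipy 1.17.1 were used.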

Additional observations from a re-analysis of the deposited data

How the results depend on the processing

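The number of intragenic BN1-only regions, 3291, became 2153 and 1123 when both lists were limited by −log10 q to minimums of 5 and 10, and 1981 when only the list labelled BN1 was limited to 5. It became 2084 and 1406 when peaks within 1000 and 5000 bp were merged. The number of host genes, 1725, became 824 at a minimum of 10 and 1105 with merging within 5000 bp. The share of BN1-only regions that lay inside genes, 46.0%, became 42.5% and 35.8% at the minimums of 5 and 10, 43.4% with the BN1 list alone limited, 44.8% with lists of equal length, 44.1% and 41.9% with merging within 1000 and 5000 bp, and 47.8% and 41.4% with gene end windows of 500 and 2500 bp. The density ratio of BN1-only to control-only regions, 0.361, became 0.208 with the BN1 list alone limited, 0.818 with lists of equal length, and 0.388 and 0.381 with merging within 1000 and 5000 bp. It was below 1 in every setting run. Of the 3291 regions, 1981 overlapped such a region at a minimum of 5, and 864 at 10. These are the regions whose own −log10 q reached the minimum, which must stay BN1-only because a higher minimum adds no control peak. Limiting the lists to numbered chromosomes and X, and a midpoint rule, left the number of regions at 3291. Of 190 counts of listed hosts, 143 stayed within 1.5 times their value and 47 did not. The count for B lineage transcription factors ran from 9 to 15 of 23, and that for monocyte and macrophage genes from 0 to 3 of 21. The cause of these shifts was not tested beyond the construction of each setting. No paired analysis was possible because each group has 1 library.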
